A study of Mus musculus with 4 samples.

Results

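The H3K27ac landscape was followed at 10 genes of hepatic stellate cells (HSCs) and of fibrillar collagen in isolated mouse liver sinusoidal endothelial cells (LSECs): *Pdgfra*, *Pdgfrb*, *Col1a1*, *Col1a2*, *Col3a1*, *Lrat*, *Des*, *Reln*, *Acta2*, and *Hgf*. They are 10 of the 21883 protein-coding genes of the GRCm38 annotation that lie on chromosomes with peaks. For each gene, the peaks were taken from the gene body plus 10 kb on each side, called the gene window here. A peak was placed at a gene end when it lay within 1 kb of either end of the gene, and was distal otherwise. H3K27ac, an acetylated lysine of histone H3, was mapped by ChIP-Seq in LSECs, with 2 libraries (replicates 2 and 3), to find potential regulatory elements. Both libraries are of 1 condition, and the labels give no strain, genotype, age, or treatment of the mice. The study isolated its LSECs with beads against CD146, and how many other liver cells remained was not measured here. The list of replicate 2 held 26975 peaks and that of replicate 3 held 64498. Read totals are not given with the lists, so depth is unknown, and a gene without a peak is not shown to lack the mark.

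HSCs are the pericytes of the liver sinusoid. They lie against the LSECs across the space of Disse, store retinoids, and become myofibroblasts after injury, when they lay down fibrillar collagen. Signals pass between both cell types, with platelet-derived growth factors among the ligands that endothelial cells send to their pericytes. H3K27ac marks active promoters and active enhancers. A gene end is here the 5′ or the 3′ end, so a peak at an end is not always a peak at a promoter. Gene names are used here for what the genes mark in liver, and a peak is not a measure of their RNA.

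The promoter sequences of 8 members were found in the RefSeq promoter table (GRCm38.p6, from 250 bases before to 50 after the start site), with 9 windows in all because *Hgf* has 2. *Hgf* is shown first because it was the 1 member with a peak on its promoter windows. Its windows lie on the plus strand at chr5:16553245-16553544 and chr5:16553651-16553950, and capitals mark the bases inside the replicate 3 peak, 73 in the first and 85 in the second.
Hgf first start site: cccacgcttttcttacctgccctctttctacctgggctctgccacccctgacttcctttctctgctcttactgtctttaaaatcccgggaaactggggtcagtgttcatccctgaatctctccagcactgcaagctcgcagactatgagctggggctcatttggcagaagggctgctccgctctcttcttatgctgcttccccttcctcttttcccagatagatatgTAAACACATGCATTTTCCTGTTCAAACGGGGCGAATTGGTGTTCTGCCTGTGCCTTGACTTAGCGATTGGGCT
Hgf second start site: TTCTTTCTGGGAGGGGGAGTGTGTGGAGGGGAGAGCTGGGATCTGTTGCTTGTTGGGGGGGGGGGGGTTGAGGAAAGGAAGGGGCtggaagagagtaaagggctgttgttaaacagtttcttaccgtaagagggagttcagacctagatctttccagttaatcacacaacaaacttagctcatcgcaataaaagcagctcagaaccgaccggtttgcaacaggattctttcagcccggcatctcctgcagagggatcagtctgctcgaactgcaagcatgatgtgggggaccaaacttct
The 4 windows that follow held no peak within 1 kb in either library and were chosen to show the range of base composition among the members. They lie at chr1:45311288-45311587 (plus strand, *Col3a1*), chr19:34255324-34255623 (minus, *Acta2*), chr3:82903925-82904224 (minus, *Lrat*), and chr5:22344656-22344955 (minus, *Reln*). Capitals mark the matches to the motifs described further on, on either strand.
Col3a1: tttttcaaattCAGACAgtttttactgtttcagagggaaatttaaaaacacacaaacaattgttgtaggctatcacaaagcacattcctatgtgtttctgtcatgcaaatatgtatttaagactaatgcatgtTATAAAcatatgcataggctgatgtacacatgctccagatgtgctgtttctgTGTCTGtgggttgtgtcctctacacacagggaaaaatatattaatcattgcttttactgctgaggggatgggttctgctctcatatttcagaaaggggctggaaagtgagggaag
Acta2: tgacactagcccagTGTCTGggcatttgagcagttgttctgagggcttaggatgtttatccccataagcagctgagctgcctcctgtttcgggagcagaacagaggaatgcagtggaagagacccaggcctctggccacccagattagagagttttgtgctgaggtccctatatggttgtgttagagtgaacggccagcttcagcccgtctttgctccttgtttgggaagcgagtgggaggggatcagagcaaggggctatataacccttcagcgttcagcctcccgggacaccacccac
Lrat: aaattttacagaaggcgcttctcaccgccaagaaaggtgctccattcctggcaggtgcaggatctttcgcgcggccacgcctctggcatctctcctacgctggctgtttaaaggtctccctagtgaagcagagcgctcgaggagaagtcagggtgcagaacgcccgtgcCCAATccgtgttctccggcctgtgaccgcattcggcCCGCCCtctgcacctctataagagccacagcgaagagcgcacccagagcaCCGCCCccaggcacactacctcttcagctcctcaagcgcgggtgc
Reln: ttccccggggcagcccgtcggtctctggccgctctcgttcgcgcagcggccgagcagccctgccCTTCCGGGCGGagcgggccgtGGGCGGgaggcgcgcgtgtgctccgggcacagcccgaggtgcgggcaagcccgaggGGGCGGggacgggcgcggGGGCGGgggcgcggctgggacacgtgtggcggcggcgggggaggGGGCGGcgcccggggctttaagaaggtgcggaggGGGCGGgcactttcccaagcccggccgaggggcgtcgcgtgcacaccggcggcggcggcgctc
The *Col3a1* window held 0 CpG dinucleotides and the *Reln* window 47, which were the ends of the range. *Lrat* held 21 and *Acta2* held 6.

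In replicate 2, 0 of the 10 members had a peak at a gene end, against 43.4% of all protein-coding genes. In replicate 3, 3 of the 10 had one, namely *Col1a1*, *Acta2*, and *Hgf*, against 53.9%. The *Hgf* peaks were at the 5′ end and the *Acta2* peak at the 3′ end, and the end at *Col1a1* was not assigned. No member had a peak of both libraries at an end, where 43.4% of all genes had one. In the whole gene window, replicate 2 had peaks at 2 members (58.6% of all genes) and replicate 3 at 7 (69.9%). Peaks of both libraries that overlapped by at least 1 bp were found in the windows of 2 members, *Pdgfra* and *Acta2*, against 58.4% of all genes. *Col3a1*, *Lrat*, and *Des* had no peak in the window in either library, as did 30.1% of all genes in replicate 3. The members were longer than most genes, with a median of 37.0 kb against 17.2 kb, and a longer window can hold more peaks by its length alone. Their median number of peaks was 0 in replicate 2 and 2 in replicate 3, against 1 and 2 over all genes. In all, the member windows held 3 peaks of replicate 2, all distal, and 22 of replicate 3, of which 4 were at a gene end and 18 were distal. With 2 libraries of 1 condition and lists of called peaks, no test was made. Asking for an overlap of 50% of both peaks, in place of 1 bp, left 0 of the 3 shared regions, since each replicate 2 peak (151 to 287 bp) lay inside a wider replicate 3 peak (472 to 744 bp). In a bulk preparation, a weak mark in LSECs and a mark carried by a minority of other cells cannot be told apart.

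**Figure D1:**
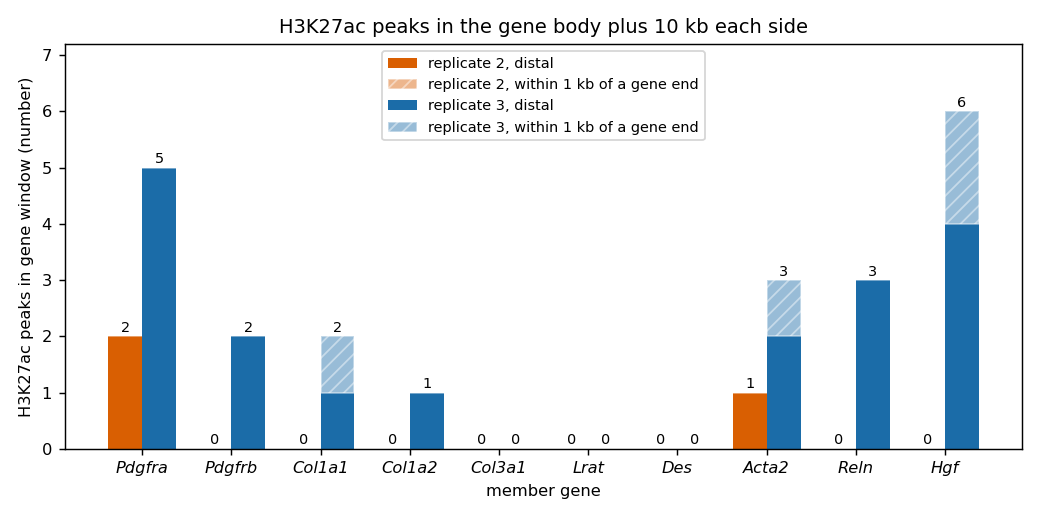
Number of H3K27ac peaks in the window of each member gene (vertical axis), in replicate 2 (orange) and replicate 3 (blue), with hatched segments for end peaks (1 kb or less from a gene end) and plain segments for distal peaks. Replicate 2 bars stand above 0 only at *Pdgfra* and *Acta2*, and *Hgf* has the tallest replicate 3 bar, at 6 peaks.

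The PDGF receptors, tyrosine kinases through which platelet-derived growth factors drive the growth and migration of HSCs, had no peak at a gene end in either library. *Pdgfra* (chr5:75151322-75198206, plus strand, 46.9 kb) had 2 peaks in replicate 2 and 5 in replicate 3, a replicate 3 count at the 79.7th percentile of all genes. A pair of shared regions lay in its gene body just downstream of the start site of the promoter table. The first was called at 75155763 to 75156506 in replicate 3, with a fold enrichment of 22.1 over background and a −log10 q of 73.0, and at 75156160 to 75156446 in replicate 2, with a fold enrichment of 6.10 and a −log10 q of 5.99. Their summits lay 38 bp apart, 4.10 kb from the start site in replicate 3 and 4.14 kb in replicate 2. The second was called at 75156929 to 75157400 in replicate 3, with a fold enrichment of 13.4, and at 75157179 to 75157329 in replicate 2, again with 6.10, with summits 29 bp apart. Among replicate 3 peaks, the first stood at the 77.1st percentile of fold enrichment and the second at the 64.5th, whereas both replicate 2 peaks stood at the 15.3rd percentile of their list. The lists differ in length, and 37.7% of replicate 3 peaks had a replicate 2 partner, so the percentiles are not comparable between the libraries. Of the 3 remaining *Pdgfra* peaks, found in replicate 3 alone, 1 lay 2.48 kb downstream of the start site (fold enrichment 5.62), 1 lay 8.93 kb upstream of it in the body of the lncRNA gene *Gm19583* (12.4), and 1 lay beyond the other end of the gene (6.98). *Pdgfrb* (chr18:61045127-61085067, 39.9 kb) had 0 peaks in replicate 2 and 2 in replicate 3. One of these was in the gene body at 61068472 to 61068649, with a fold enrichment of 4.56, and the other was at 61039930 to 61040140 in the body of the neighbouring gene *Gm52351*, with 4.28. Both were weak, at the 11.3rd and 8.03rd percentiles of the list. The nearest replicate 2 peak to *Pdgfrb* was 42.4 kb away, in the body of *Csf1r*, the receptor of macrophage colony-stimulating factor, and 29.4% of all genes lay at least as far from one.

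The 3 fibrillar collagen members encode the chains of type I collagen (*Col1a1* and *Col1a2*) and of type III collagen (*Col3a1*), the main fibres of scar. None had a replicate 2 peak in its window. *Col1a1* (chr11:94936224-94953042, 16.8 kb) had 2 peaks in replicate 3. The stronger, at 94936891 to 94937333, had a fold enrichment of 12.0 and a −log10 q of 29.8, at the 61.1st percentile of the list, and its summit lay in the gene body 929 bp from the end with the lower coordinate. The other, at 94939374 to 94939531, lay farther in, 3.23 kb from that end, with a fold enrichment of 5.21 and at the 19.8th percentile. The table used gives no strand for *Col1a1*, so its 5′ end was not assigned. *Col1a2* (chr6:4505618-4541543, plus strand, 35.9 kb) had 1 peak in replicate 3, at 4544646 to 4544818, beyond the 3′ end of the gene, with a fold enrichment of 5.54. Nearest to it in replicate 2 was a peak 16.3 kb from the gene, at 4557839 to 4557988, with a fold enrichment of 4.74 and no replicate 3 peak over it. The 2 libraries therefore gave *Col1a2* no element in common, even within 50 kb. *Col3a1* (chr1:45311538-45349706, plus strand, 38.2 kb) was the member farthest from any peak of replicate 2, at 445 kb, and 8.92% of all genes lay as far or farther. In replicate 3 its nearest peak was at 82.3 kb, as far as for 17.7% of genes. Among these 3 genes, whose products are deposited together in scar, only *Col1a1* thus had a peak at a gene end, in 1 library.

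*Lrat* encodes lecithin retinol acyltransferase, which makes the retinyl esters that quiescent HSCs store. *Lrat* (chr3:82892582-82903974, minus strand, 11.4 kb) had no peak within 50 kb in either library. The nearest was 151 kb away in replicate 2 and 95.2 kb away in replicate 3, distances reached by 17.5% and 16.7% of all genes. It lies inside the span of the lncRNA gene *Rbm46os* on the opposite strand, which had no peak at an end either.

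The filament members differed. *Des* (chr1:75360292-75368579, plus strand, 8.29 kb), which encodes desmin, an intermediate filament protein of HSCs and muscle, had no peak in its window. Its nearest peak was 14.0 kb away in replicate 3, in the body of *Speg*, and 42.1 kb away in replicate 2, at an end of *Dnpep*, an aspartyl aminopeptidase gene. The *Dnpep* peak had the highest fold enrichment of the whole replicate 3 list, 218.8, and in replicate 2 it had 59.6. Between it and *Des*, replicate 3 had 1 further peak, 17.1 kb from *Des* (8.85). *Acta2* (chr19:34240336-34255585, minus strand, 15.3 kb), which encodes α-SMA, the actin of smooth muscle and of activated HSCs, had 1 peak in replicate 2 and 3 in replicate 3. The shared region lay inside the gene, with summits 10 bp apart and 6.59 kb from the start site in replicate 3. Replicate 3 had it at 34248469 to 34249190 with a fold enrichment of 28.0 and a −log10 q of 110, the strongest of the 22 member peaks, at the 81.8th percentile. Replicate 2 had it at 34248656 to 34248880 with 8.13, at the 38.2nd percentile. The other *Acta2* peaks were in replicate 3 alone, at 34244072 to 34244425 (fold enrichment 9.77) and at 34241319 to 34241542 (5.61). The last of these counts as a peak at a gene end, but that end is the 3′ end, and it is also within 1 kb of the end of *Stambpl1*, which meets *Acta2* tail to tail with 3 bp between them. No peak lay within 1 kb of the *Acta2* start site in either library.

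The secreted members had 6 and 3 peaks in replicate 3 and no replicate 2 peak in their windows. *Hgf* (chr5:16553495-16619439, plus strand, 65.9 kb) encodes hepatocyte growth factor, the ligand of MET, which HSCs and LSECs supply to hepatocytes. It had 6 peaks in replicate 3, at the 85.0th percentile of all genes, and its nearest replicate 2 peak was 81.0 kb away. A pair of them stood at the gene's 5′ end, at 16552684 to 16553007 with a fold enrichment of 11.1, and at 16553472 to 16553735, over the promoter sequences shown above, with 5.61. Another 3 lay in the body within a few kb of these, with fold enrichments of 3.41, 4.56, and, at 16559613 to 16559958, 12.1. The last, at 16601560 to 16601741, was 47.8 kb downstream and had 4.72. A lncRNA gene on the opposite strand, *Gm31113*, lies within *Hgf*, and its 3′ end is within 1 kb of both peaks at the *Hgf* 5′ end. *Reln* (chr5:21884454-22344705, minus strand, 460 kb) encodes reelin, an extracellular glycoprotein that marks HSCs in liver. Its 3 replicate 3 peaks lay deep in the gene, 120 kb, 149 kb, and 203 kb from the start site, with fold enrichments of 12.7, 4.88, and 3.61. No replicate 2 peak was found within 97.6 kb of it, as for 21.5% of all genes. As the longest member by far, it had only 3 peaks.

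**Figure D2:**
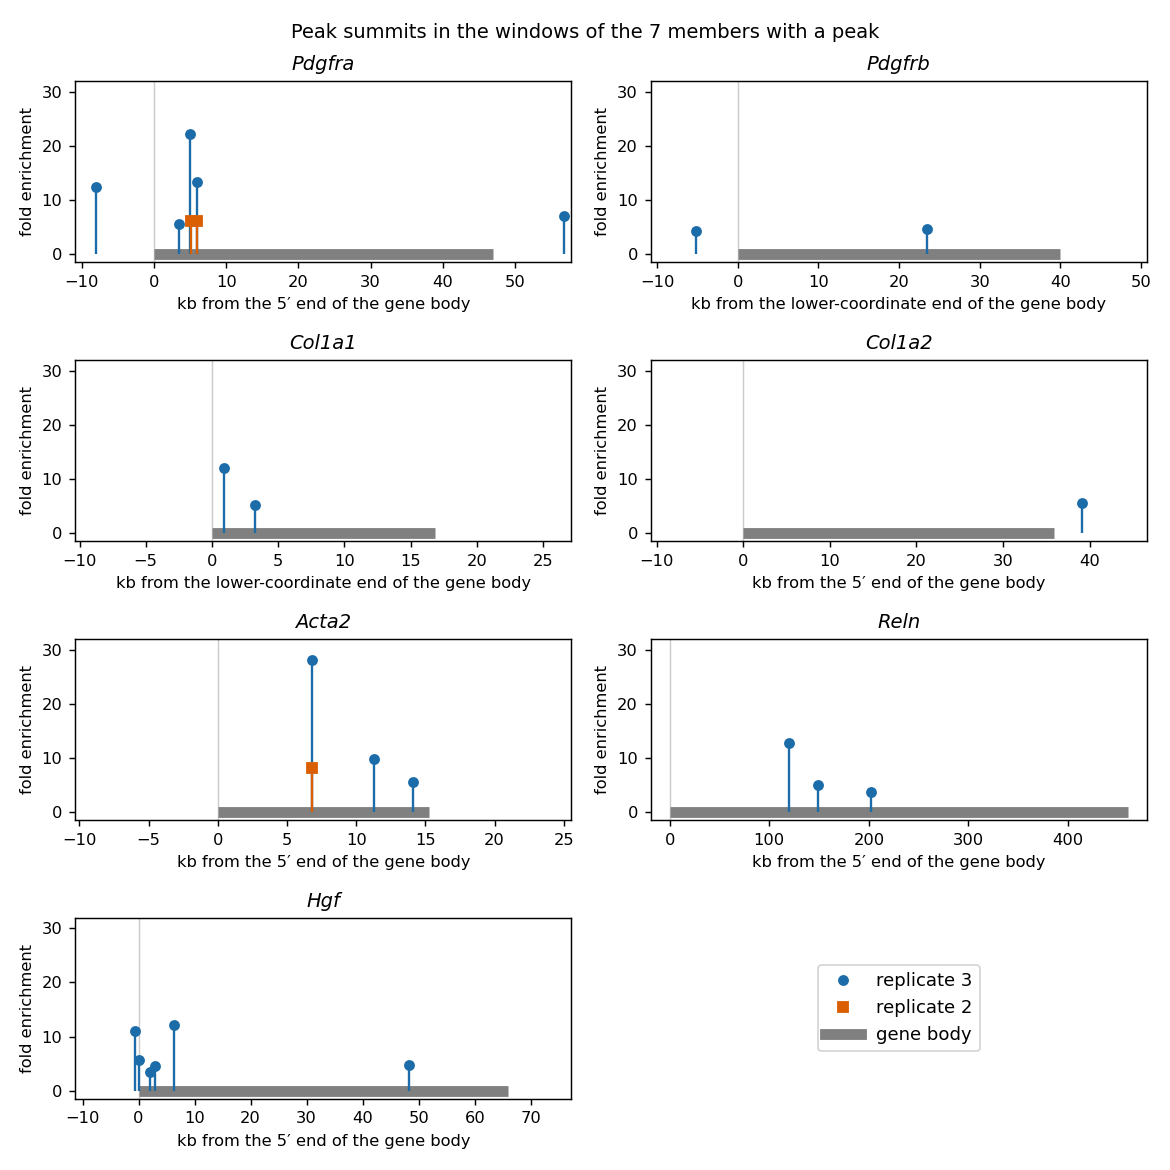
Summits of the peaks in the windows of the 7 members that had any, with distance in kb from the 5′ end of the gene body on the horizontal axis (for *Pdgfrb* and *Col1a1*, from the end with the lower coordinate) and fold enrichment on the vertical axis, for replicate 2 (orange squares) and replicate 3 (blue circles). Grey bars are gene bodies, and the orange squares fall under blue circles inside *Pdgfra* and *Acta2*, where replicate 3 reaches 22.1 and 28.0.

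The member peaks of replicate 3 were weaker than the list as a whole. Their median fold enrichment was 5.61, with a range of 3.41 to 28.0, against 8.89 over all 64498 peaks, and 9 of the 22 were above that median. Of the 22, 18 were distal, and the whole list was not split into end and distal peaks for this comparison. The 3 replicate 2 peaks had a median of 6.10, against 9.76 over their list. Of the 22 replicate 3 peaks, 3 (13.6%; Wilson 95% interval, 4.75% to 33.3%, which covers the number of peaks only) had a replicate 2 peak, against 37.7% of the whole list. The interval treats the peaks as independent, but they lay in 7 gene windows and the 3 shared ones in 2. It is therefore not a test against the 37.7%. The 19 without one had a median of 5.61, close to the 6.20 of all replicate 3 peaks without one. Strength and sharing moved together across the whole list, where peaks with a partner had a higher median than those without, and the part that strength plays in the low share was not tested. Peaks can be set beside others of like strength. Of the replicate 3 peaks within 10% of the fold enrichment of the *Acta2* shared peak, 95.4% had a partner, and for the shared peaks of *Pdgfra* the values were 86.4% and 43.6%. For the strongest peaks without a partner the values were 39.9% (*Reln*), 37.5% (*Pdgfra*, upstream), 35.4% (*Hgf*), and 35.3% (*Col1a1*), so most peaks of that strength had none. At the 3 shared regions the fold enrichment of replicate 3 was 3.63, 2.19, and 3.45 times that of replicate 2. Over all shared peaks the median ratio was 2.46, with a lowest decile of 1.36 and a highest of 3.86, and the 3 ratios fell within that range.

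**Figure D3:**
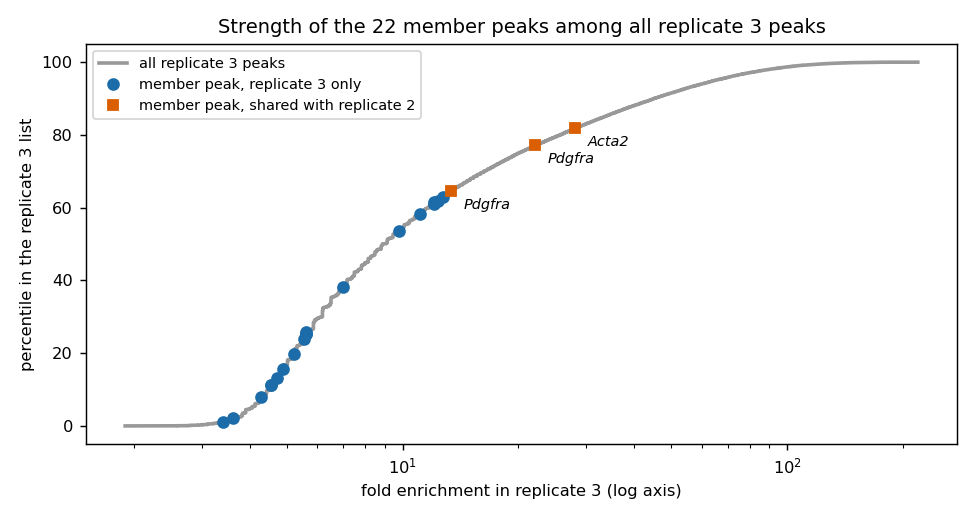
Percentile in the replicate 3 list (vertical axis) against fold enrichment in replicate 3 (horizontal, log axis), with all replicate 3 peaks as a grey line, the 19 member peaks of replicate 3 alone as blue circles, and the 3 shared member peaks as orange squares. The orange squares sit at the 64.5th, 77.1st, and 81.8th percentiles, above every blue circle, the highest of which is at the 63.0th.

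Base composition of the promoters was set beside the peaks. An observed to expected CpG ratio of 0.6 or more was found in 10136 of 21262 promoter windows, and 76.1% of these had a replicate 2 peak and 85.6% a replicate 3 peak within 1 kb. Below 0.6, the shares were 15.5% and 24.5%. Of the member promoters, *Reln* (1.01) and *Lrat* (0.777) were above 0.6, and neither had a peak within 1 kb in either library. The others were below 0.6, from 0.470 in *Col1a2* through 0.344 in *Des*, 0.270 in *Acta2*, and 0.256 in *Pdgfra* to 0 in *Col3a1*, all without a peak within 1 kb. The 2 *Hgf* windows, at 0.368 and 0.328, were the exception, with a replicate 3 peak. Most member promoters thus belong to the class that seldom had a peak in these cells, and *Reln* and *Lrat* to the class that usually did. A search of both strands found the SMAD motif CAGACA (18.9% of all promoters) in *Col3a1*, *Col1a2*, *Des*, and *Acta2*, the CCAAT box CCAAT (38.2%) in *Col1a2*, *Lrat*, and the first *Hgf* window, and the GC box GGGCGG (46.2%) in *Col1a2*, *Des*, *Lrat*, and *Reln*, the last with 6 copies. The TATA box TATAAA (12.6%) was found in *Col3a1*, and the ETS motif CCGGAAG (11.6%) in *Reln*, where it overlaps a GC box. No member window held an exact match to the AP-1 motif TGANTCA (6.99%), the GATA motif AGATAA (9.65%), or the CArG box (1.52%). *Pdgfra* and the second *Hgf* window held none of the motifs. Looser variants were not counted, so the CArG-like strings ccctatatgg and ccttgtttgg in the *Acta2* window are not among the matches. A match is a string of letters in the window and not a measured binding site.

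**Figure D4:**
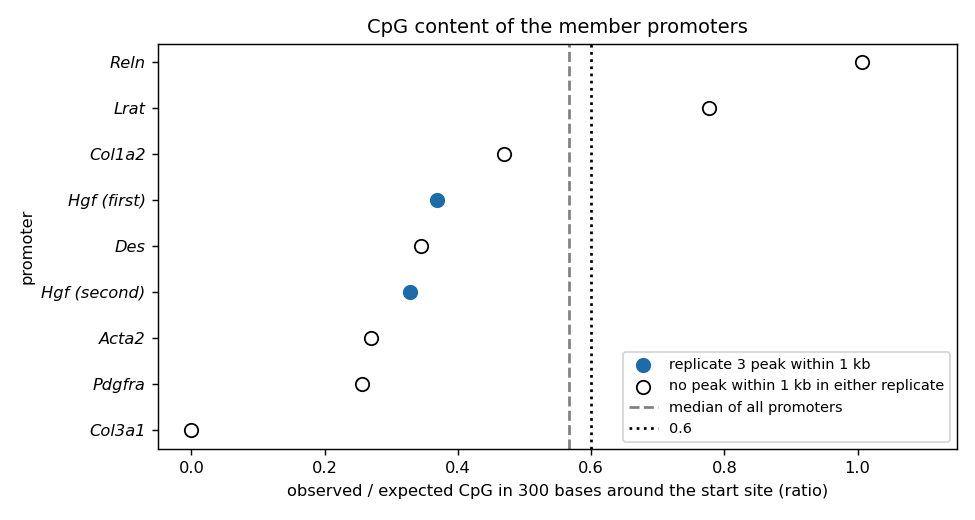
Ratio of observed to expected CpG in the 300-base promoter windows (horizontal axis) for the 9 windows of the 8 members with a sequence, filled where replicate 3 had a peak within 1 kb and open where neither library had one. *Reln* and *Lrat* lie to the right of 0.6 (dotted line) with open symbols, and the filled symbols are the 2 *Hgf* windows, to the left of the median of all promoters (dashed line, 0.567).

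Genes that act with the members were counted from lists. Of 8 other fibrillar collagen genes, 0 had a shared peak at a gene end, against 43.4% of all genes. In the window, 3 had a shared peak, against 58.4%. *Col5a1*, a chain of type V collagen, had peaks at an end in replicate 3 alone, with a fold enrichment of up to 13.7. *Col11a1* and *Col24a1* had none, as with *Col3a1*. The enzymes and chaperones that make and cross-link collagen had more, with shared end peaks at 6 of 17 genes and replicate 3 end peaks at 10. The strongest in replicate 3 were at *P3h1*, a prolyl hydroxylase (fold enrichment 142), *Plod3*, a lysyl hydroxylase (83.0), *P4ha1* and *P4hb*, the subunits of prolyl 4-hydroxylase (69.8 and 68.3), and *Loxl3*, a lysyl oxidase (24.8). *Serpinh1*, the collagen chaperone, had a replicate 3 peak alone (7.49), and *Lox* and *Loxl2* had none in the window. Of 14 ligands, receptors, and partners of the members, 4 had a shared peak at an end. These were *Itgb1* and *Itga1*, the integrin chains of a collagen receptor (35.6 and 24.8), *Lrp8*, a reelin receptor (18.6), and *Pdgfd*, a ligand of the PDGF receptor β (14.0). *Pdgfb*, which encodes PDGF-B, had 2 replicate 3 peaks in its window, both at an end (up to 22.3). Its 1 replicate 2 peak overlapped an end peak of replicate 3 but lay more than 1 kb from either end. *Pdgfc* had no peak in its window. *Met*, the HGF receptor, had an end peak in replicate 3 alone (5.86). Of 10 genes of retinoid handling, 3 had a shared peak at an end, namely *Dgat1* (64.5), *Rdh10* (36.8), and *Rxra* (19.9), and *Rbp4*, which encodes a retinol-binding protein, had none in the window. For shared end peaks, 6 of 17, 4 of 14, and 3 of 10 were all below the 43.4% of all genes. For replicate 3 end peaks, 10 of 17 (58.8%), 8 of 14 (57.1%), and 6 of 10 (60%) were all above the 53.9% of all genes.

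Further HSC markers and the markers of other liver cells bear on what the preparation held. For all gene lists, neighbouring genes were not checked, so an end peak may also stand at the end of an adjacent gene. Of 19 other HSC markers, 3 had a shared end peak, against 43.4% of all genes, and 7 one in replicate 3, against 53.9%. The 3 were *Vim* (fold enrichment 89.9 in replicate 3), *Ednrb* (39.4), and *Ecm1* (17.1), which encode vimentin, an endothelin receptor, and an extracellular matrix protein. The highest end peak of this list in replicate 3 was at *Angptl6*, an angiopoietin-like gene (130), which had no replicate 2 peak at an end but 3 shared regions in its window. Vimentin and the endothelin receptor B are also made by endothelial cells. *Timp1* (15.6), *Tagln* (7.16), and *Nt5e* (6.19) had an end peak in replicate 3 alone. *Gfap* and *Pth1r* each had 1 shared region away from the ends (fold enrichment up to 21.8 and 24.4 in replicate 3). *Rgs5*, *Tcf21*, *Dcn*, *Lum*, *Ngfr*, and *Ednra* had no peak in the window in either library. In the window, 6 of the 19 had a shared peak, against 58.4% of all genes. A replicate 3 peak was there at 13, against 69.9%. All 20 LSEC markers had an end peak in replicate 3 (53.9% of all genes) and 16 had a shared one (43.4% of all genes). The label of the cells matched these markers, but the list was chosen with earlier results of these data known. The median number of replicate 3 peaks in the window was 14.5 for LSEC markers (range, 3 to 34), 2 for the other HSC markers, and 2 for the members. Shared peaks at an end were found in 1 of 11 Kupffer cell markers (*Cd68*), 2 of 13 hepatocyte markers (*Trf* and *Ass1*), 1 of 7 cholangiocyte markers (*Muc1*), 1 of 7 lymphocyte markers (*Cd79a*), and 3 of 10 markers of smooth muscle and portal fibroblasts (*Smtn*, *Lmod1*, and *Myh11*), against 43.4% of all genes. *Alb*, the defining hepatocyte marker, had no peak at an end but 1 in the window in each library, and *Clec4f*, the defining Kupffer cell marker, had none. Among the smooth muscle and portal fibroblast markers, *Cnn1*, *Fbln2*, *Thy1*, and *Msln* had no end peak in either library. In the window, however, *Cnn1* had 2 shared regions and *Fbln2* had 1. A shared peak in the window was found at 7 of 10 genes of this list, against 58.4% of all genes. The same count was 2 of 11 for Kupffer cell, 5 of 13 for hepatocyte, 2 of 7 for cholangiocyte, and 3 of 7 for lymphocyte markers. Among the 7 smooth muscle and portal fibroblast genes was *Cd34*, with 2 shared regions. The paper uses *Cd34* as a marker of capillarized LSECs, so that gene is not particular to smooth muscle or fibroblasts. The part of smooth muscle or other cells in the member peaks was not tested.

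**Figure D5:**
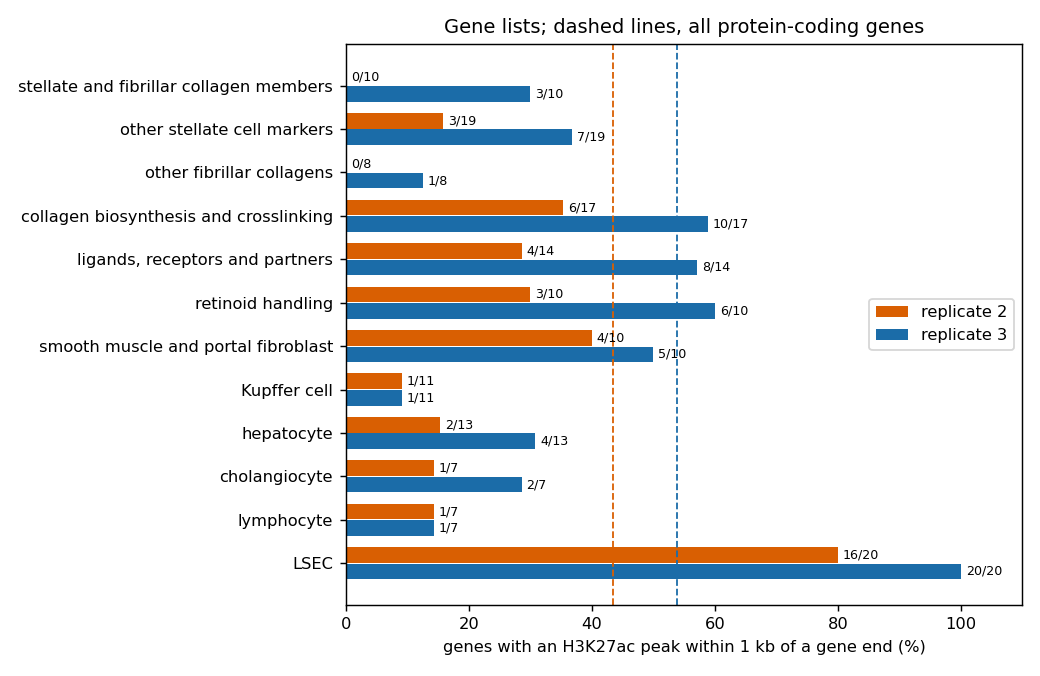
Percent of genes in each list with an H3K27ac peak within 1 kb of a gene end (horizontal axis) in replicate 2 (orange) and replicate 3 (blue), with the number of genes beside each bar and the value over all protein-coding genes as dashed lines in the same colours. The members stand at 0 of 10 and 3 of 10, left of the lines at 43.4% and 53.9%, and the LSEC markers at 16 of 20 and 20 of 20, right of them.

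Widening the windows to 50 kb on each side mainly added peaks that stood at or in neighbouring genes. The count rose to 12 peaks in replicate 2 and 51 in replicate 3, and 5 members then had a shared region. The share of all genes with a shared region at 50 kb flanks is not given here. The rise therefore cannot be set against that of genes at large. *Acta2* had 14 replicate 3 peaks within 50 kb, among them a shared peak at the end of *Fas*, the death receptor gene, 35.1 kb away (fold enrichment 43.6 and 14.0), and shared peaks in the body of *Stambpl1* (up to 44.0). *Col1a1* had 10, with shared peaks at an end of *Ppp1r9b* (42.0 and 8.34) and, outside any gene body, at 94978725 to 94979334 (30.1 and 15.8). *Pdgfrb* had 6, all but its own 2 in the body of *Csf1r*, where the strongest was shared (32.7 and 17.6). *Hgf* had 7 and *Pdgfra* 6 in replicate 3, 1 more each than in the 10 kb window. *Col3a1* and *Lrat* still had 0 in both libraries, and *Reln* had none to add to its 3. Which gene an element between genes acts on is not given by these data.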

How the data were processed

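H3K27ac ChIP-Seq was done on 2 libraries of isolated mouse LSECs, and their 2 input libraries were not analysed here. The submitters' processing notes name the mm10 build (GRCm38), cutadapt 0.4.4, BWA 0.7.17, Picard 1.67, MACS2 2.0.10, and bedtools 2.27.1. Whether the inputs entered the peak calls is not given in the sources used here. The paper describes a tagmentation-based library, and the labels describe sonication and a ligation kit. The authors called peaks per library. The deposited lists give each peak's fold enrichment (a ratio of signal to background), the −log10 of its p-value and of its q-value (all q-values at or under 0.01), and a score that restates the latter. These values rank peaks within a list and were not rescaled between libraries.

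Gene bodies came from the RefSeq table of GRCm38.p6, without exons, and strand and start sites from the RefSeq promoter table. Exons and introns were not told apart. Peaks were assigned by an overlap of at least 1 bp, with 10 kb flanks and 1 kb around gene ends. Percentiles are mid-ranks in a list, with tied values given their average rank. All 146 genes of the lists were matched. The genes named are the members, genes at or around their peaks, and up to 5 per list by fold enrichment at an end; genes named for having no peak, or outside that rule, were chosen after their values were seen. The members and lists were chosen with earlier results of these data known. Counting was tested on simulated data. The alternatives tried were a cutoff on q at 1e-05, the 26975 strongest peaks of each library, reciprocal overlap of at least 50%, flanks of 0 and 50 kb, gene ends of 2.5 kb, the 5′ end alone, peaks near other genes left out, and each library alone. Python 3.11.15, numpy 2.4.6, pandas 2.3.3, and matplotlib 3.10.9 were used.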

Additional observations from a re-analysis of the deposited data

How the results depend on the processing

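For 8 counts and values of the member windows, 75 alternatives were computed. Of these, 57 stayed within 1.5 times the count, the interval of the share, or the SD of the member-peak medians of both libraries, and 18 moved. Part of the 57 could not have moved, because the setting does not enter the value. For example, the definition of a gene end does not enter the counts of peaks in the windows, the share, or the median. The overlap rule does not enter the peak counts of either library. A reciprocal overlap of at least 50% left 0 shared regions, 0 distal shared regions, 0 members with a shared peak, and a share of 0%. Flanks of 50 kb gave 10 shared regions, all 10 distal, 5 members with a shared peak, 12 and 51 peaks in replicates 2 and 3, and a median fold enrichment of 7.88. No share of all genes at these flanks is given beside them. The 26975 strongest peaks of each library left 7 replicate 3 peaks, 42.9% of them shared, with a median of 12.7, and a q-value of 1e-05 or less gave a median of 6.98. The share and medians over all peaks at these cuts are not given here. The 42.9% is therefore not comparable with the 37.7% of the uncut list. Counting 1 library alone, the members with a peak at an end ranged from 0 to 3, those with a peak in the window from 2 to 7, the regions from 3 to 22, and the distal regions from 3 to 18. The higher values come from replicate 3. No paired analysis was possible because both libraries belong to 1 group. The depth of both libraries is unknown.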
